A study of Homo sapiens with 2 samples.

Results

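Divergent promoters of protein-coding gene pairs were examined in ATAC-seq profiles of CAMA-1, a human breast adenocarcinoma cell line of luminal epithelial type, grown as an adherent culture for which the labels give no treatment. ATAC-seq uses the Tn5 transposase to cut accessible DNA, and a peak marks a stretch where cuts pile up over background. The data comprised 2 biological replicates of 50000 cells each, which form a single condition of 1 cell line, so every comparison is between promoters within the same cells. A pair was taken as 2 autosomal protein-coding genes of GENCODE release 44 on hg38 that lie head to head on opposite strands, with their most upstream annotated transcription start sites (TSSs) at most 1 kb apart and the genes pointing away from each other. This gave 861 pairs at 799 separate loci, made of 1659 genes, 8.68% of 19111 autosomal protein-coding genes, of which 62 genes belonged to several pairs. The members were the peaks over the interval between the TSSs extended by 500 bp on each side, 843 of 245736 peaks in replicate 1 and 833 of 259745 in replicate 2. One-sided promoters, the comparator, were those of 13191 autosomal protein-coding genes with no TSS of another annotated gene on the opposite strand within 1 kb. A promoter was called open where a peak overlapped its window, 500 bp on each side of the TSS or of the TSS interval, in both replicates.

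Markers of the labelled cell type were checked first. All 10 listed genes of luminal breast epithelium had a peak within 500 bp of a TSS, among them FOXA1 with a fold enrichment of 84.9 in replicate 1 and 90.2 in replicate 2, and GATA3 with 48.3 and 50.0. The blood genes PTPRC, CD3E and MS4A1 and the endothelial gene PECAM1 had none. The lists of other cell types were not empty, however, as 3 of 6 blood genes and 3 of 4 stromal genes had a peak, among them CD14 with 47.9 and 52.6, COL1A1 with 73.4 and 67.2 and PDGFRB with 64.7 and 67.2, levels like that of GATA3 or higher. FOXA1 has another coding gene, TTC6, within 1 kb. These counts take any TSS of a gene. At the most upstream TSS alone, 68.6% of all autosomal protein-coding genes had a peak in both replicates. The counts by themselves are therefore weak evidence of cell type. Fold enrichment is the ratio, given by the peak caller, of the pileup at a peak to the background, with 1 added to each, and its median over all peaks was 8.28 in replicate 1 and 7.96 in replicate 2.

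A promoter is where RNA polymerase II assembles, and transcription from it needs a stretch of DNA that is not wrapped in nucleosomes. In a divergent pair, a single short interval carries the start sites of both genes, so that the upstream side of each gene is the start of its partner. Such pairs are known to be rich in housekeeping genes, in genes of DNA repair and mitochondria and in histone genes, and most lie in CpG islands, where the CpG dinucleotide is not depleted and TATA boxes are rare.

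The sequence between the start sites of a pair is short, and a few of these intervals are printed here on the plus strand of hg38, from the base after the TSS of the minus-strand gene to the base before that of the plus-strand gene. They lie outside both genes of the pair, and no annotated exon overlaps those printed. Capitals mark matches, on either strand, to the core letters of motifs bound by promoter factors: CCAAT (NF-Y), GGGCGG (SP/KLF), CCGGAAG (ETS), GCGCATGCG (NRF1) and TATAAA (the TATA box). SARS2-MRPS12 (chr19:38930764-38930943), XRCC3-ZFYVE21 (chr14:103715505-103715729) and SHC1-CKS1B (chr1:154974396-154974652) are shown for their repeated CCAAT letters and PPAT-PAICS (chr4:56435616-56435740) for its GC boxes. ZNF697-PHGDH (chr1:119648267-119648410), among the 10 strongest pairs, is an open interval without any of the letters searched. GDAP2-WDR3 (chr1:117929622-117929719) and CBX5-HNRNPA1 (chr12:54280134-54280192) are strong open pairs whose intervals hold the ETS and the NRF1 letters. H2BC21-H2AC20 (chr1:149886683-149886917) is an open histone pair and H2AC1-H2BC1 (chr6:25726563-25726776) a histone pair without a peak. PLCZ1-CAPZA3 (chr12:18738101-18738118) and LANCL1-CPS1 (chr2:210477653-210477681) are the shortest intervals without a peak. Apart from well-known pairs and those without a peak, the intervals shown were picked after their values were seen.
SARS2-MRPS12: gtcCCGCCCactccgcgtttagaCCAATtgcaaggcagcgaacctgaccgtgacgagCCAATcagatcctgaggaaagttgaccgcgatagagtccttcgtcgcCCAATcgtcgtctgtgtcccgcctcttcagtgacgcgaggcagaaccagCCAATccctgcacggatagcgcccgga
XRCC3-ZFYVE21: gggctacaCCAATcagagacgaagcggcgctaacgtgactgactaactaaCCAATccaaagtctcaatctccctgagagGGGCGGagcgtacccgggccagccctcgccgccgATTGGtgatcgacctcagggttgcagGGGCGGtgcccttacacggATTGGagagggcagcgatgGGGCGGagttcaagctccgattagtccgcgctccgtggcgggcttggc
SHC1-CKS1B: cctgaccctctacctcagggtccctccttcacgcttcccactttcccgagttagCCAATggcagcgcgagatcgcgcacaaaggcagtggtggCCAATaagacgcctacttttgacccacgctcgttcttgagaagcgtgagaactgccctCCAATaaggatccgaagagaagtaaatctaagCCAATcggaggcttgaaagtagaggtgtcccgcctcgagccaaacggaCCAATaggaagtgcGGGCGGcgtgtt
PPAT-PAICS: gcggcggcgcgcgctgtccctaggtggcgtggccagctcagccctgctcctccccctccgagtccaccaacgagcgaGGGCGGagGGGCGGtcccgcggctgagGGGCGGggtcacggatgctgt
ZNF697-PHGDH: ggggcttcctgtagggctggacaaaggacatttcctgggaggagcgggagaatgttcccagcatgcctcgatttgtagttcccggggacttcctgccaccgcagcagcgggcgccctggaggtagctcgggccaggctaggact
GDAP2-WDR3: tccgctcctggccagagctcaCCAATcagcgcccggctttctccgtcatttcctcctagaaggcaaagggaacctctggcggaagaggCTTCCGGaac
CBX5-HNRNPA1: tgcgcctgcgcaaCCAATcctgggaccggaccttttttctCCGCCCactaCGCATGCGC
H2BC21-H2AC20: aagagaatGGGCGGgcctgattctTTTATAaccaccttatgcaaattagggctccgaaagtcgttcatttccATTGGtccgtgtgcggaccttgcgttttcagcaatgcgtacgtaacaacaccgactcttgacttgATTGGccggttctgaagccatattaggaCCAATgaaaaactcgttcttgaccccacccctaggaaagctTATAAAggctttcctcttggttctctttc
H2AC1-H2BC1: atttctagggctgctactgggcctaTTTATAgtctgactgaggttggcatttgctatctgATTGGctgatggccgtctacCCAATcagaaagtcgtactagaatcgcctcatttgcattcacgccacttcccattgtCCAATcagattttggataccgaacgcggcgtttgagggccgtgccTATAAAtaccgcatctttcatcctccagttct
PLCZ1-CAPZA3: gacctcatcaggaggctc
LANCL1-CPS1: actcctaatccctccccacacccaggttt

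Nearly all divergent promoters were open in CAMA-1. A peak lay over 822 of 861 pairs in both replicates, 95.5% (95% Wilson interval 93.9 to 96.7). Over all autosomal protein-coding promoters, read gene by gene within 500 bp of the most upstream TSS, the share was 68.6%. One-sided promoters were open in 7904 of 13191 cases, 59.9% (59.1 to 60.8). The difference was 35.6 percentage points (95% Newcombe interval 33.7 to 37.0). By the looser call of a peak in a single replicate, it was 34.4 in replicate 1 and 33.9 in replicate 2 (SD 0.398, n = 2). That SD covers only how far the 2 libraries agree. It was 13.4 points among CpG-rich promoters, those with at least 0.6 of the CpGs their base content predicts, and 14.2 with one-sided promoters weighted to the CpG content of the pairs. These intervals cover counting error only, and promoters are not replicates of a condition. Read gene by gene, with 500 bp on each side of each TSS as for the one-sided genes, 1577 of 1659 genes of pairs were open, 95.1% (93.9 to 96.0). A second kind of head-to-head promoter, in which the partner of the coding gene is a long non-coding RNA, lay between them, with 1190 of 1375 coding genes open (86.5%, 84.6 to 88.2). Coding pairs whose upstream ends overlap, which the definition leaves out, were open in 465 of 493 cases (94.3%, 91.9 to 96.0).

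The open pairs also carried stronger and wider peaks. The median fold enrichment of the strongest peak of a pair was 62.5 in replicate 1 (interquartile range 40.1 to 95.9) and 63.9 in replicate 2 (41.8 to 96.2). For open one-sided promoters it was 43.7 (20.2 to 73.9) and 45.3 (21.0 to 76.3), so the interquartile ranges overlapped while the medians stood at a ratio of 1.42 ± 0.0136 (SD, n = 2). Coding genes paired with a long non-coding RNA had medians of 57.1 and 59.5. In pileup, the number of overlapping fragments or cuts that the fold enrichment steps imply, the median height was 270.5 over pairs and 189 over one-sided promoters in replicate 1, and 288 and 204 in replicate 2. The peaks of pairs had a median width of 1250.5 bp in replicate 1 and 1249.5 bp in replicate 2, against 970 and 977 bp. The ratio was 1.28 ± 0.00726 (SD, n = 2). The extra width was not particular to these pairs. Coding genes paired with a long non-coding RNA had median widths of 1227 and 1251 bp, and coding pairs with overlapping upstream ends 1271 and 1269 bp. Among all peaks, the 10000 strongest of replicate 1 held 325 of 843 member peaks (38.6%, where 4.07% of all peaks are in that set), and those of replicate 2 held 326 of 833 (39.1%, where the share of all peaks is 3.85%). These sets began at a fold enrichment of 71.1 and 73.2. The upper quartiles of other open promoters also passed that level. They were 73.9 and 76.3 at one-sided promoters, 87.2 and 90.7 at genes paired with a long non-coding RNA, and 93.4 and 92.4 at overlapping pairs. The ratio of median fold enrichment was above 1 in both replicates on 22 of 22 autosomes, from 1.10 to 2.10.

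Around each TSS, the pairs stood above one-sided promoters upstream, at the TSS and just downstream, and the gap closed further into the gene. At the TSS itself, a peak covered 92.7% (replicate 1) and 93.0% (replicate 2) of the genes of pairs, against 52.3% and 52.7% of one-sided genes. At 500 bp upstream, where the partner gene usually lies, the shares were 69.6% and 70.0% against 23.6% and 23.9%. At 200 bp downstream they were 85.2% and 85.3% against 46.6% and 47.0%. At 500 bp downstream they were 52.0% and 53.0% against 35.2% and 35.5%, and at 1 kb downstream 20.1% and 20.7% against 21.8% and 22.0%. CpG-rich one-sided genes had 78.6% and 78.9% at the TSS and 36.2% and 36.6% at 500 bp upstream. At 500 bp downstream these genes had 54.7% in both replicates, above the pairs. Peaks over pairs were thus longer towards the partner, and no more common than at one-sided promoters 1 kb into the gene.

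**Figure D1:**
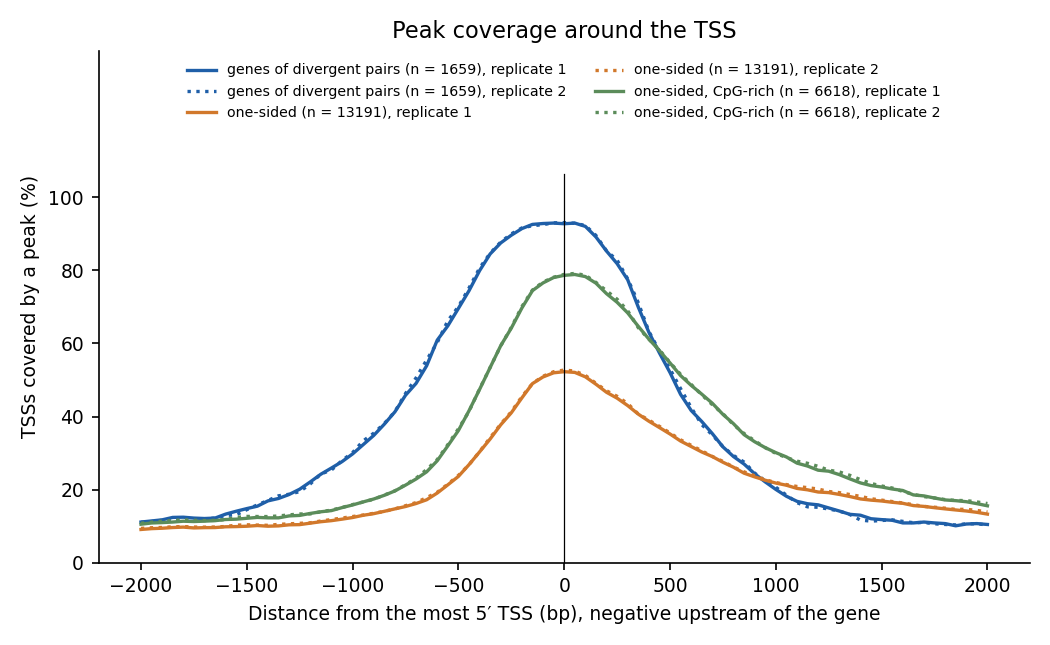
Share of TSSs under a peak (vertical axis, %) by distance from the most upstream TSS in bp (horizontal axis, negative upstream), for the 1659 genes of pairs, 13191 one-sided genes and the 6618 one-sided genes with a CpG ratio of at least 0.6. Solid and dotted lines are replicates 1 and 2, which run over each other, and the curve of the pairs is wide on the upstream side and falls below CpG-rich one-sided genes from about 500 bp into the gene.

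The start sites of a pair usually shared 1 peak. Of the 822 open pairs, 770 (93.7%, 91.8 to 95.1) had both TSSs under the same peak in both replicates. Over these 770 pairs, the peak ran a median of 539 bp in replicate 1 and 535.5 bp in replicate 2 past the minus-strand TSS, into that gene, and 492.5 and 516 bp past the plus-strand TSS. At one-sided TSSs under a peak, the peak reached a median of 538 bp into the gene in both replicates and 410 and 407 bp upstream. The median reach into each gene of a pair was therefore close to that of a one-sided promoter. The upper quartile was lower, 773 bp into the minus-strand gene and 767 and 771 bp into the plus-strand gene, against 881 bp. The middle of the peak was a median of 135 bp from the middle of the TSS interval in replicate 1 and 136 bp in replicate 2. The median signed offset was -14.5 and -11.75 bp, on the side of the minus-strand gene in both replicates, and a strand preference was not tested. Peak edges moved by a median of 27 and 30 bp between replicates.

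The distance between the TSSs ran from 1 to 995 bp with a median of 131 bp (interquartile range 69 to 248), and 696 pairs (80.8%) were within 300 bp. The share of open pairs with 1 peak over both TSSs was 98.4% at 1 to 100 bp, 97.4% at 101 to 200 bp, 96.5% at 201 to 300 bp and 92.0% at 301 to 500 bp. It was 55.2% (43.4 to 66.5) at 501 to 1000 bp, an interval below that of every other class. The share of pairs that were open changed little, from 90.5% in the widest class (n = 74) to 98.3% at 201 to 300 bp (n = 116). Median fold enrichment was lowest in the closest pairs, 55.2 in replicate 1 and 55.0 in replicate 2, and highest at 201 to 300 bp, 76.3 and 77.5. Across the 822 open pairs, the rank correlation of fold enrichment with distance was weak (Spearman's rho 0.177 in replicate 1 and 0.179 in replicate 2, across pairs of the same 2 libraries). The distance depends on the transcripts chosen. Between the representative transcripts of the genes (MANE Select or canonical) the median distance was 453 bp over all pairs, and 506 of 822 open pairs (61.6%, 58.2 to 64.8) had both representative TSSs under 1 peak.

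**Figure D2:**
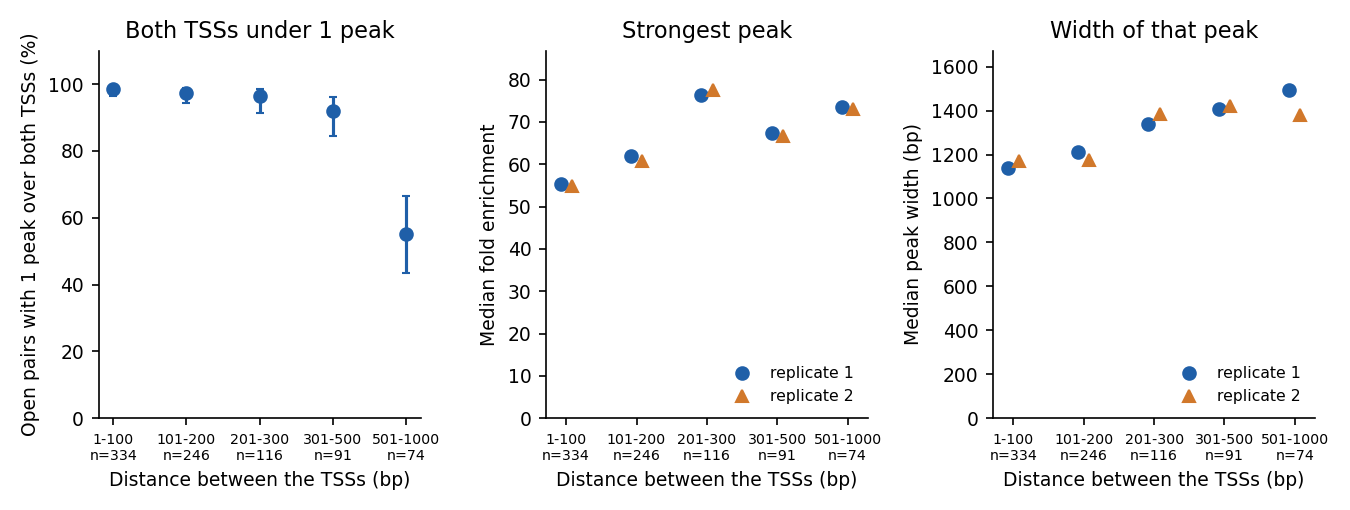
Open pairs by distance between their TSSs in 5 classes (horizontal axes, bp, with the number of pairs): the share with both TSSs under 1 peak in both replicates with its 95% Wilson interval (left, %), the median fold enrichment of the strongest peak (middle) and its median width in bp (right), with points for each replicate. A single peak covers both TSSs in over 90% of open pairs up to 500 bp and in 55.2% beyond.

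The replicates gave nearly the same values for each pair. Fold enrichment in the replicates had a Spearman's rho of 0.983 across the 822 open pairs, and 812 pairs (98.8%) were within 1.5-fold. Only 1 pair had a peak in a single replicate, FUT1-FGF21, with a fold enrichment of 5.06 in replicate 1 (height 21, exact Poisson interval 13.0 to 32.1). FUT1 makes the H blood group antigen and FGF21 is a metabolic hormone. In the other 10 pairs the replicates differed by more, mostly weak peaks such as DCST2-DCST1 (10.8 and 4.20) and WNT3-WNT9B (9.89 and 5.53). A pair of strong ones stood apart, PFDN2-NIT1 with 146 in replicate 1 and 84.9 in replicate 2, and MRPL21-IGHMBP2 with 115 and 64.6. These 4 pairs were chosen after their values were seen.

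**Figure D3:**
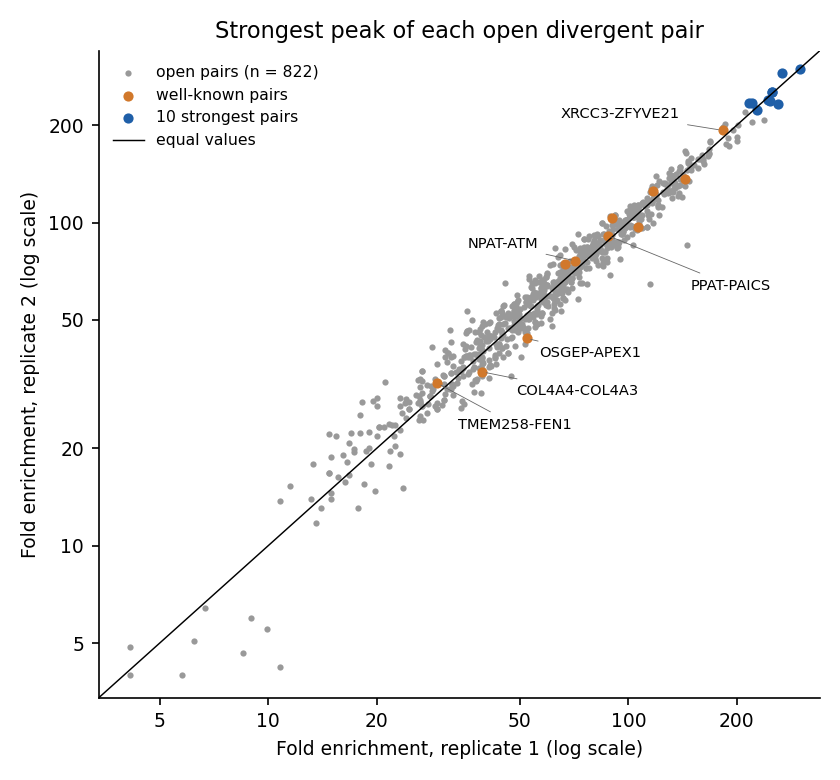
Fold enrichment of the strongest peak of each of the 822 open pairs in replicate 1 (horizontal axis) and replicate 2 (vertical axis), both on log scales, with well-known pairs and the 10 strongest pairs in colour and the line of equal values. The points follow the line, TMEM258-FEN1 lies low and XRCC3-ZFYVE21 high among the well-known pairs.

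Of 19 well-known head-to-head pairs looked up, 11 met the definition. All 11 were open in both replicates, and 10 had a single peak over both TSSs, counts near the shares over all pairs (95.5% open, and 93.7% of open pairs with a single peak). DNA repair genes make up much of this list. NPAT-ATM joins the activator of histone genes with the kinase that responds to double-strand breaks, at TSSs 406 bp apart, and its peak had a fold enrichment of 71.3 in replicate 1 and 76.1 in replicate 2, near the middle of all open pairs. PALB2-DCTN5, the partner of BRCA2 and a dynactin subunit, had 117 and 126 at 145 bp. XRCC3-ZFYVE21, with a gene of homologous recombination, was the strongest of the 11 with 183 and 193, in heights 793 (exact Poisson interval 739 to 850) and 871 (814 to 931). TMEM258-FEN1 was the weakest, with 29.5 and 31.8 and heights of 127 (106 to 151) and 143 (121 to 168). FEN1 is the flap endonuclease that trims Okazaki fragments. NTHL1-TSC2, a base excision glycosylase beside the tuberin gene, had 90.2 and 103. OSGEP-APEX1, with the main abasic-site endonuclease, had 52.2 and 43.8.

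Outside DNA repair, PPAT-PAICS, which codes for enzymes of purine synthesis, had a fold enrichment of 87.7 in replicate 1 and 91.1 in replicate 2. SARS2-MRPS12, a mitochondrial tRNA synthetase with a mitochondrial ribosomal protein, had 106 and 96.9. COL4A4-COL4A3, the basement-membrane collagen pair, was open with 39.3 and 34.5, below the lower quartile of all open pairs in both replicates. PSMB1-TBP, a proteasome subunit with the TATA-binding protein, was the exception to the single peak. Its TSSs are 995 bp apart and 2 peaks overlapped its window in each replicate. The stronger peak, of 66.7 and 74.5, covered the TBP TSS and not the PSMB1 TSS. A further 4 of the 19 have upstream ends that overlap and so fall outside the definition, and all had a peak, among them GART-SON with 152 and 155, BRCA2-ZAR1L with 54.1 and 55.7, and SURF1-SURF2 with 45.6 and 55.5.

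The strongest pair was RECQL4-LRRC14, of a helicase gene, with a fold enrichment of 299.6 in replicate 1 and 299.2 in replicate 2. Its peak was 5176 and 5232 bp wide and ran 4025 and 4073 bp past the RECQL4 TSS. The value belongs to the whole peak, so its highest point need not lie between the TSSs. Next by rank was LIPT2-POLD3 (268 and 290), of a lipoyl transferase and a subunit of DNA polymerase delta. SHC1-CKS1B (260 and 232, in a peak 3965 and 3903 bp wide) combines a signalling adaptor with a cofactor of cell cycle kinases. TRMT1L-SWT1 (244 and 240), ELOC-TMEM70 (247 and 238), ZNF697-PHGDH (228 and 224), XRRA1-SPCS2 (220 and 234) and CAB39L-SETDB2 (217 and 234) were also among the 10 highest by mean rank. In several of these pairs the most upstream TSS is not that of the representative transcript. The representative TSSs were 98858 bp apart in LIPT2-POLD3, 63668 bp in ZNF697-PHGDH, 4004 bp in ELOC-TMEM70 and 3934 bp in SHC1-CKS1B. The remaining places were the 2 pairs of KIFC2, with TMEM276 and with an unnamed gene, which share 1 peak of 251 and 253. That peak was 6780 and 5667 bp wide. Of these 10 pairs, 4 lie on chromosome 8, 3 on chromosome 1 and 2 on chromosome 11, and the part of copy number in these values was not tested.

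At the border of the definition, 4 of the 5 most widely spaced pairs inside 1 kb were open: PSMB1-TBP as given above, APBA3-MRPL54 (57.5 in replicate 1 and 64.3 in replicate 2), UBQLN4-LAMTOR2 (144 and 137) and NEMP1-NAB2 (104 and 95.5). The fifth, MS4A6A-MS4A4A, of immune cell membrane proteins, had no peak. Of the 5 nearest pairs outside, at 1008 to 1041 bp, 4 were open, among them TXNDC12-BTF3L4 (59.8 and 68.1), ENSG00000268790-TMEM38A (76.6 and 64.3) and ENSG00000288654-ZNF654 (46.2 and 49.1). CSMD2-C1orf94 had no peak, so the values ran on across the border.

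Replication-dependent histone genes, which supply new nucleosomes in S phase, had the largest share of paired genes among the lists of more than 4 genes. Of 73 such genes, 27 (37.0%, against 8.68% of all autosomal protein-coding genes) were in 15 pairs at 13 loci. Histone genes lay on both sides in 14 of the pairs, nearly all H2A with H2B. Of the 15 pairs 13 were open, where the share over all pairs was 95.5%. A single peak covered both TSSs in each of these 13, where the share over all open pairs was 93.7%. Their median fold enrichment was 82.6 in replicate 1 and 88.9 in replicate 2, against 39.0 and 39.6 at the 22 of 33 one-sided histone genes that were open, and their peaks had a median width of 2370 and 2458 bp. H2BC4-H2AC6 had 132 and 119, H2BC21-H2AC20 127 and 132, and H2AC25-H2BC26, the weakest open one, 49.5 and 49.3. Without a peak were H3C7-H2BC9, with TSSs 979 bp apart, and H2AC1-H2BC1, genes known from the male germ line. Histone genes include near-identical copies, and how reads were assigned among such copies is not given in the sources used here.

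Genes of mitochondrial complex I, the entry point of the respiratory chain, had 14 of 46 members (30.4%) in 15 pairs, all open. The median fold enrichment was 69.9 in replicate 1 and 62.8 in replicate 2, against 37.9 and 36.9 at the 16 of 17 open one-sided members. TEPSIN-NDUFAF8 was high with 169 and 178, and AKAP3-NDUFA9 low with 14.7 and 16.8. Mitochondrial ribosomal proteins had 17 of 78 genes in 18 pairs, all open, and here the medians of pairs (57.9 in replicate 1 and 61.3 in replicate 2) and of one-sided members (54.5 and 59.0) lay close. MRPL47-NDUFB5 (95.9 and 92.0) and MRPL36-NDUFS6 (20.0 and 28.7) each joined a mitochondrial ribosomal gene to a complex I gene. Cytosolic ribosomal proteins had 10 of 80 genes in pairs, all open, with medians of 55.5 in replicate 1 and 57.2 in replicate 2, against 65.1 and 58.6 at open one-sided members. All 6 pairs matched by proteasome symbols (PSME3IP1-RSPRY1 among them, which codes for no subunit), 3 of tRNA synthetases and 27 of zinc finger genes were open, and so were 26 of 28 with TMEM genes. Zinc finger pairs had lower medians than open one-sided members, 52.5 and 55.5 against 56.0 and 62.8, and TMEM pairs higher ones, 78.8 and 80.3 against 42.1 and 43.6. Proteasome pairs had 61.1 and 66.7 against 56.1 and 59.3, and the 3 synthetase pairs 77.3 and 88.9 against 72.9 and 80.5.

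DNA repair genes were also often paired, 30 of 92 (32.6%, against 8.68% of all autosomal protein-coding genes) in 31 pairs. Of these pairs, 30 were open and 24 had a single peak over both TSSs, where the share over all open pairs was 93.7%. Their median fold enrichment was 59.5 in replicate 1 and 60.4 in replicate 2, against 71.3 and 71.2 at the 29 of 34 open one-sided repair genes, so in this list the pairs did not have the stronger peaks. BRCA1-NBR1, with the homologous recombination gene, had 78.0 and 80.9. PMS2-AIMP2, with a mismatch repair gene, had 101 and 107. PRKDC-MCM4, which joins the kinase of end joining to a replication helicase subunit, had 42.6 and 38.0 at TSSs 7 bp apart. RHBDF1-MPG, with a base excision glycosylase, was the weakest open one with 14.0 and 13.0. RAD51D-FNDC8 had no peak, although the representative TSS of RAD51D, 1662 bp away, had 50.6 and 54.0. The lists were drawn up by symbol, the examples named from them were picked after their values were seen, and shares near the 95.5% of all pairs say nothing particular about a list.

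The 39 pairs that were not open in both replicates, at 37 loci, included genes known from other tissues. PLCZ1-CAPZA3 codes for a sperm phospholipase and a sperm actin-capping protein, and TSPAN19-LRRIQ1, LYPD4-DMRTC2, SOX30-C5orf52 and TRIM50-FKBP6 also had no peak. The representative TSS of DMRTC2, 299 bp away, did have a peak within 500 bp, with 18.4 and 12.4. FOXL2-FOXL2NB, with the ovarian transcription factor, RASL12-KBTBD13, with a muscle gene, GABRA4-GABRB1, of receptors for GABA in neurons, and OR11A1-OR2H1, of olfactory receptors, had none. Other genes of these pairs had a peak at another start site. Of the 76 genes of these pairs, 29 had their representative TSS outside the window, and 15 had a peak at the representative TSS in both replicates, 14 of them outside the window. LANCL1 of LANCL1-CPS1 had 81.9 and 85.4 at a TSS 893 bp away, CTNND1, which codes for p120 catenin, had 62.1 and 53.1 at 8559 bp, and OSTM1 33.6 and 39.1 at 91113 bp. In 17 pairs 1 gene was open at some other TSS, in 3 pairs both genes and in 19 pairs neither. CCDC82-JRKL and ZDHHC19-SLC51A complete the 10 closest pairs without a peak. BOLA2-SLX1B lies in a segmental duplication with a near-identical copy, so its lack of a peak is uncertain.

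CpG content differed between the classes and moved with the comparison. The CpG ratio, the number of CpGs over that expected from the C and G content, had a median of 0.784 over 1 kb at pairs and of 0.602 at one-sided promoters. It was at least 0.6 at 794 pairs (92.2%) and 6618 one-sided promoters (50.2%). Among these CpG-rich promoters, 97.2% of pairs and 83.8% of one-sided promoters were open, a difference of 13.4 points (11.8 to 14.7), against 35.6 without the restriction. The ratio of median fold enrichment was 1.24 in replicate 1 and 1.21 in replicate 2, and that of width 1.17 and 1.16. Below 0.6, 50 of 67 pairs were open, 74.6% (63.1 to 83.5), against 35.9% of one-sided promoters. In the lowest class, up to 0.2, 2 of 12 pairs were open, 16.7% (4.70 to 44.8), beside 25.3% of one-sided promoters. Within the 822 open pairs the CpG ratio and fold enrichment were nearly unrelated (Spearman's rho 0.0201 in replicate 1 and 0.0311 in replicate 2). With one-sided promoters weighted to the CpG ratios of the pairs, 81.3% of them were open and the difference was 14.2 points.

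**Figure D4:**
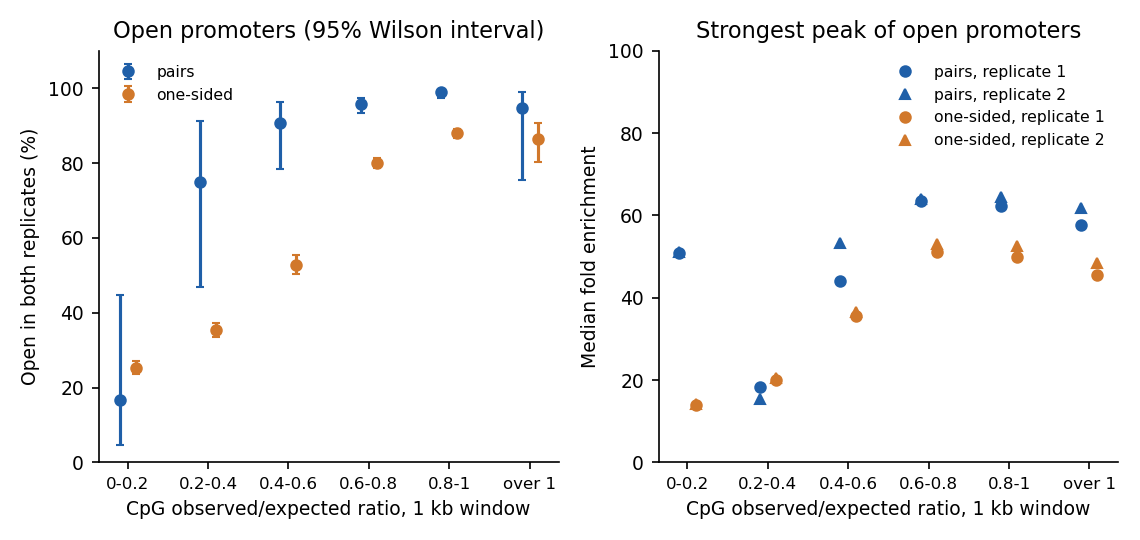
Pairs and one-sided promoters in 6 classes of the CpG observed/expected ratio (horizontal axes): the share open in both replicates with its 95% Wilson interval (left, %) and the median fold enrichment of the strongest peak of open promoters in each replicate (right). The share of open pairs lies above that of one-sided promoters in each class from 0.2 to 1, while at 0.2 to 0.4 the 9 open pairs have the lower medians of fold enrichment, 18.4 and 15.5 against 20.0 and 20.6, and the intervals of the share overlap in the lowest class, which holds 12 pairs, and in the highest, which holds 19.

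The letters of promoter motifs were counted in 300 bp at each promoter, centred on the TSS interval for pairs and spanning -215 to 84 bp around the TSS for one-sided promoters. The ETS core CCGGAAG was in 27.5% of pairs (24.6 to 30.6), 8.91% of one-sided promoters and 12.1% of all promoters. The NRF1 core GCGCATGCG was in 7.08%, 1.65% and 2.39%, and the YY1 core AAGATGGCG in 3.95%, 1.71% and 2.21%. Among one-sided promoters that were open and CpG-rich, the shares were 16.2% for ETS, 3.43% for NRF1 and 3.53% for YY1, nearer to those of pairs. For ETS and NRF1 the gap to the pairs was widest at TSSs up to 200 bp apart. The ETS core was in 38.8% of open pairs with TSSs up to 100 bp apart, in 26.4% at 101 to 200 bp and in 17.1% at 201 to 1000 bp, the last close to the open CpG-rich one-sided promoters, and the NRF1 core in 8.70%, 9.09% and 4.46%. The SP/KLF core GGGCGG was in 70.8% of pairs, 48.1% of one-sided promoters and 53.6% of all promoters, but in 77.0% of open CpG-rich one-sided promoters, above the share in pairs. The TATA letters TATAAA were in 4.99% of pairs, 12.0% of one-sided promoters and 10.0% of all promoters, but also in 4.71% of open CpG-rich one-sided promoters, close to the share in pairs. CCAAT was in 40.7% of pairs, 34.6% of one-sided promoters and 33.9% of the open CpG-rich ones. Its share went the other way with distance, from 28.0% of open pairs up to 100 bp, below the one-sided promoters, to 42.9% at 101 to 200 bp and 53.9% at 201 to 1000 bp. The window kept its 300 bp at every distance. With TSSs more than 300 bp apart it therefore left out both start sites, whereas the one-sided window always held the TSS. What the position of the window adds to the shares by distance was not tested. The other cores searched were TGACGTCA (CRE, 3.95% of pairs, 2.27% of all promoters), CACGTG (the E-box, 10.3% and 8.11%), ACTACAATT (ZNF143, 0.929% and 0.419%) and TTTCCCGC (E2F, 3.02% and 1.95%). Among open CpG-rich one-sided promoters the shares were 3.30% for CRE, 10.2% for the E-box, 0.667% for ZNF143 and 2.78% for E2F, near those in pairs. Matches of different motifs rarely overlapped, 12 times for CCAAT with GGGCGG and 7 times each for the E2F and the ETS core with it.

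Among the cores held by at least 30 pairs, CCAAT showed the widest gap in peak strength between pairs with and without it. The 334 open pairs with CCAAT in their window had a median fold enrichment of 82.1 in replicate 1 and 84.9 in replicate 2, and the other 488 had 52.6 in both. The same held at each distance between the TSSs, with 74.4 against 50.5 up to 100 bp in replicate 1, 81.7 against 49.9 at 101 to 200 bp and 88.1 against 56.8 beyond. Pairs with 1 match had medians of 75.2 and 79.8, those with 2 matches 74.1 in both replicates and those with 3 or more 105 and 104, so strength did not rise from 1 match to 2. The pairs with 3 or more also had TSSs farther apart, with a median of 241.5 bp against 139 bp for 1 match. It was not particular to pairs, as open CpG-rich one-sided promoters had 63.7 with CCAAT and 45.1 without in replicate 1, and 67.0 and 46.9 in replicate 2. CCAAT was as frequent in pairs without a peak in both replicates, 16 of 39 (41.0%). Pairs with the NRF1 core had lower medians than the rest, 49.9 against 63.5 in replicate 1 and 50.6 against 64.6 in replicate 2, and the ETS core made little difference, with 62.1 against 62.6 and 61.9 against 64.1. The 8 pairs with the ZNF143 core had medians of 125 and 129. These are differences between promoters of different genes, given as a description.

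**Figure D5:**
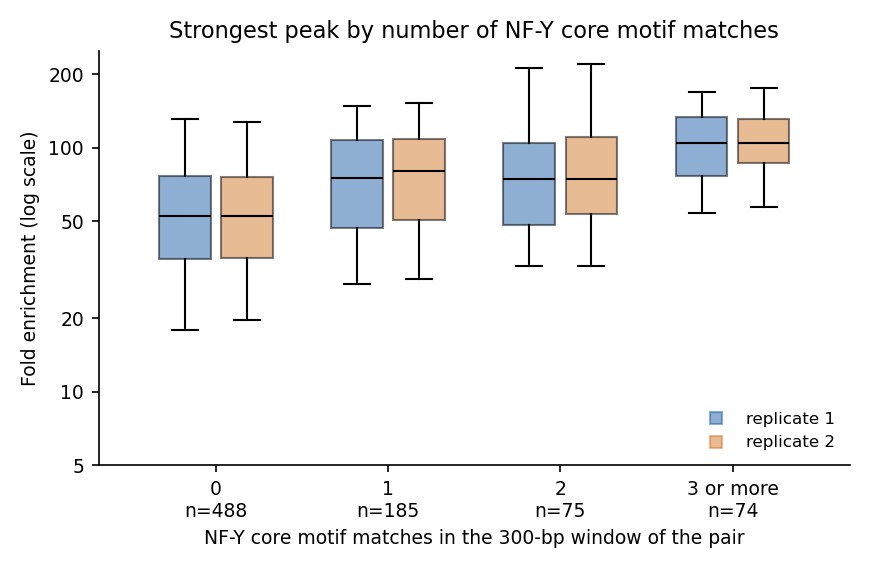
Fold enrichment of the strongest peak of open pairs (vertical axis, log scale) by the number of matches to the NF-Y core motif in the 300 bp centred on the TSS interval (horizontal axis, with the number of pairs), for each replicate. Boxes are quartiles with the median as a line and whiskers reach from percentile 5 to percentile 95, and the median is 52.6 without a match, between 74.1 and 79.8 with 1 or 2 matches and 105 in replicate 1 and 104 in replicate 2 with 3 or more.

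The printed intervals show the range of these arrangements. SARS2-MRPS12 holds 4 CCAAT matches and 1 GC box in 180 bp, XRCC3-ZFYVE21 holds 4 CCAAT matches and 3 GC boxes in 225 bp, and SHC1-CKS1B has 5 CCAAT matches and 1 GC box in 257 bp. CBX5-HNRNPA1, of heterochromatin protein 1 alpha and a splicing factor, has CCAAT, a GC box and the NRF1 core within 59 bp and had a fold enrichment of 184 in replicate 1 and 194 in replicate 2. GDAP2-WDR3 had 211 and 220. ZNF697-PHGDH, with the first enzyme of serine synthesis, had 228 and 224 with none of the 10 cores in its interval, and 76 of 861 pairs had none in their window. Histone pairs stood out in letters, since CCAAT was in 15 of 15 windows, at least 2 matches in 14, and TATAAA in 11 of 15, against 40.7% and 4.99% of all pairs. H2AC1-H2BC1, without a peak, has 3 CCAAT and 2 TATA matches, and the open H2BC21-H2AC20 has the same numbers and also 1 GC box. The numbers of CCAAT and TATA matches thus did not separate these 2 pairs.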

How the data were processed

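The authors trimmed reads, aligned them to hg38 and called peaks in each replicate, with Trim Galore 0.6.5, Bowtie2 2.3.5.1 and MACS2 2.2.6 per the submitters' processing notes. Settings of the peak caller, treatment of duplicates and excluded regions are not given in the sources used here. The deposited lists give 4 values for each peak: the fold enrichment, which is a ratio over background, a −log10 p-value, a −log10 q-value and a score, which repeats the −log10 q on a coarser scale. The deposited fold enrichment rose in steps of 0.230 and 0.221, which gave heights above backgrounds of 3.35 and 3.52. Sequencing depth is not in the lists and was not used. Peak precision is given by heights and their exact Poisson intervals, which cover counting error only.

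TSSs were taken from GENCODE release 44 as the most upstream start of each gene. Where several peaks overlapped a window, the strongest was read. Shares have 95% Wilson intervals and differences Newcombe intervals, for counting error only. With 2 replicates of a single condition no p-value was computed. The named pairs were 19 well-known ones, the 10 strongest, the 10 closest without a peak, 5 on each side of the 1 kb limit and those with a peak in 1 replicate. The members and lists were chosen with earlier results of these data known. The procedure was tested on simulated data. A few named items are not reported here. Python 3.11.15, numpy 2.4.6, pandas 2.3.3, scipy 1.17.1, pysam 0.24.0 and matplotlib 3.10.9 were used. Alternatives are given in the closing section.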

Additional observations from a re-analysis of the deposited data

How the results depend on the processing

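Across 16 alternatives and 6 results, 82 values in all, 0 reversed, 22 stayed within 1 SD between replicates and 60 moved by more. In the order open pairs (%), open one-sided promoters (%), difference (points), open pairs with 1 peak over both TSSs (%), ratio of fold enrichment and ratio of width, the values were 95.5, 59.9, 35.6, 93.7, 1.42 and 1.28 as reported. With peaks of a −log10 q of at least 10 they were 94.8, 56.7, 38.1, 94.1, 1.34 and 1.24, and with the 50000 strongest peaks 88.2, 41.7, 46.4, 95.1, 1.09 and 1.11, with the ratio of strength closest to 1 under this setting. With windows extended by 100 bp they were 94.9, 53.9, 41.0, 94.2, 1.33 and 1.23. Pairs drawn anew by representative TSSs, a different set of 957, gave 97.0, 63.4, 33.6, 94.2, 1.40 and 1.31. In the set as reported, 61.6% of open pairs had both representative TSSs under 1 peak. One-sided promoters weighted to the CpG ratios of the pairs gave 81.3% open, a difference of 14.2 and ratios of 1.24 and 1.16. One-sided promoters without another TSS within 5 kb gave 57.3, 38.1, 1.45 and 1.29. Pairs within 300 bp gave 95.8% open, 97.8% with 1 peak, and ratios of 1.37 and 1.23. With overlapping upstream ends the shares were 95.1% and 86.2%, the difference 35.1 and the ratio of strength 1.40. Without chromosome 1 the shares of pairs were 95.02% open and 94.2% with 1 peak and the ratio of width 1.30. Without readthrough genes 94.0% had 1 peak and the ratios were 1.44 and 1.27. The same 1 kb window gave 95.4% open pairs, and 1 pair per locus, an alternative chosen after seeing the data, 95.4%. The −log10 q in place of fold enrichment gave a ratio of 1.58. Counting each TSS under any peak gave 95.4%. Leaving out either replicate gave open pairs of 95.5% to 95.6%, one-sided promoters of 61.2% to 61.6%, differences of 33.9 to 34.4, 1-peak shares of 93.9% to 94.3%, ratios of strength of 1.45 to 1.46 and of width of 1.30 to 1.31. Leaving out a replicate also loosens the call, since a peak in the replicate that remains is then enough. The causes of the shifts under the alternatives were not tested.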
